A study of Drosophila melanogaster with 4 samples.

Results

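The Rab genes of Drosophila melanogaster encode small GTPases of membrane traffic, and their transcripts were compared here between embryos lacking an 8-microRNA cluster and w1118 embryos. Members were chosen by gene symbol: Rab or RabX followed by a digit, taken from the annotation ID of each probe. No threshold on the ratio entered the choice, but the family was picked with these ratios known, so the counts below describe the family and test nothing about it. The reference table held 36 such symbols, and 33 of them had a probe (58 probes) among 13068 genes with a probe on the array. By the filter on signal given below, 30 of the 33 genes were measured above background, among 9925 genes tested in all. Of these 30 genes, 28 encode GTPases and 2, Rab3GAP1 and Rab3-GAP, encode subunits of a regulator complex, which the symbol rule takes in as well. Rab3-GEF and RabX2 had probes that were above background on no array. The RabX5 probe was above it on 1 array in each genotype and was not kept. Rab9D, Rab9Db and Rab9E had no named probe.

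Each 2-colour array held RNA of whole null embryos in one dye and RNA of whole w1118 embryos in the other. Both genotypes have the w1118 genetic background. Eggs were laid over 2 h and aged for 6 h at 25 degrees C, which the labels give as 6 to 8 h after egg laying. The titles and source names call the mutant an 8-miR cluster null, whereas its genotype field says miR-8 cluster null and the treatment text speaks of ectopic mir-3. The labels therefore conflict, and "null" below means the embryos so titled. The study has 3 biological replicates of each genotype, isolated independently per its design text, on 4 arrays. The null was in Cy3 on replicates 1, 2 and 3, and the same RNA of replicate 1 was hybridised once more, on the remaining array, with the null in Cy5. Slide 1 carried both arrays of replicate 1, and slide 2 carried replicates 2 and 3. For replicates 2 and 3 genotype and dye cannot be told apart. The 8 microRNA genes of the cluster had 0 named probes here, so the deletion itself was not checked. All 15 transcripts listed as markers of the embryo were above background in both genotypes on all arrays. Of 6 listed as markers of adult or other tissue, 2 were above it on no array, among them Acp26Aa of the male accessory gland. The yolk protein gene Yp1 was above it on all arrays. The others were above it on some arrays: ninaE on 3 in the null and 4 in w1118, Act88F on 2 and 3, and Cp36 on 3 and 2. Of the embryo markers, en, hh, elav, sca and crb were lower in the null by the test given below, and Ubx was higher. Their log2 ratios of null over w1118 were -0.15, -0.17, -0.30, -0.19, -0.17 and 0.19. The remaining embryo markers did not pass that test.

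A Rab protein is a molecular switch: bound to GTP it sits on a membrane and recruits tethers, motors and fusion factors, and bound to GDP it is inactive. GEFs load the GTP, GAPs speed its hydrolysis, a prenyl group anchors the protein, and GDI takes the inactive form back off the membrane. Each family member marks particular compartments, so the family as a whole covers the route from the endoplasmic reticulum through the Golgi to the cell surface, and the endosomes and lysosomes. In fly embryos these routes carry membrane to growing cell surfaces and sort adhesion molecules and signalling receptors.

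In the null, 15 of the 30 measured Rab genes were lower, 4 were higher and 11 did not pass the test (limma moderated test, adjusted p under 0.05 over all genes). The changes were common on these arrays: 53.7% of all genes tested were called, 27.6% higher and 26.1% lower. Among Rab genes 63.3% were called, 13.3% higher and 50% lower. The median log2 ratio of null over w1118 was -0.12 over the Rab genes and 0.01 over all genes. The members' ratios ran from -1.05 for Rab9 to 0.27 for Rab3GAP1. Most differences were small: 5 Rab genes (16.7%) reached 0.5 on the log2 scale in either direction, compared with 13.8% of all genes, and all 5 were lower. A difference of at least 2-fold was met by 1 Rab gene, or 3.33%, against 3.67% of all genes. In whole embryos fewer cells of a type and less RNA per cell cannot be told apart.

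**Figure D1:**
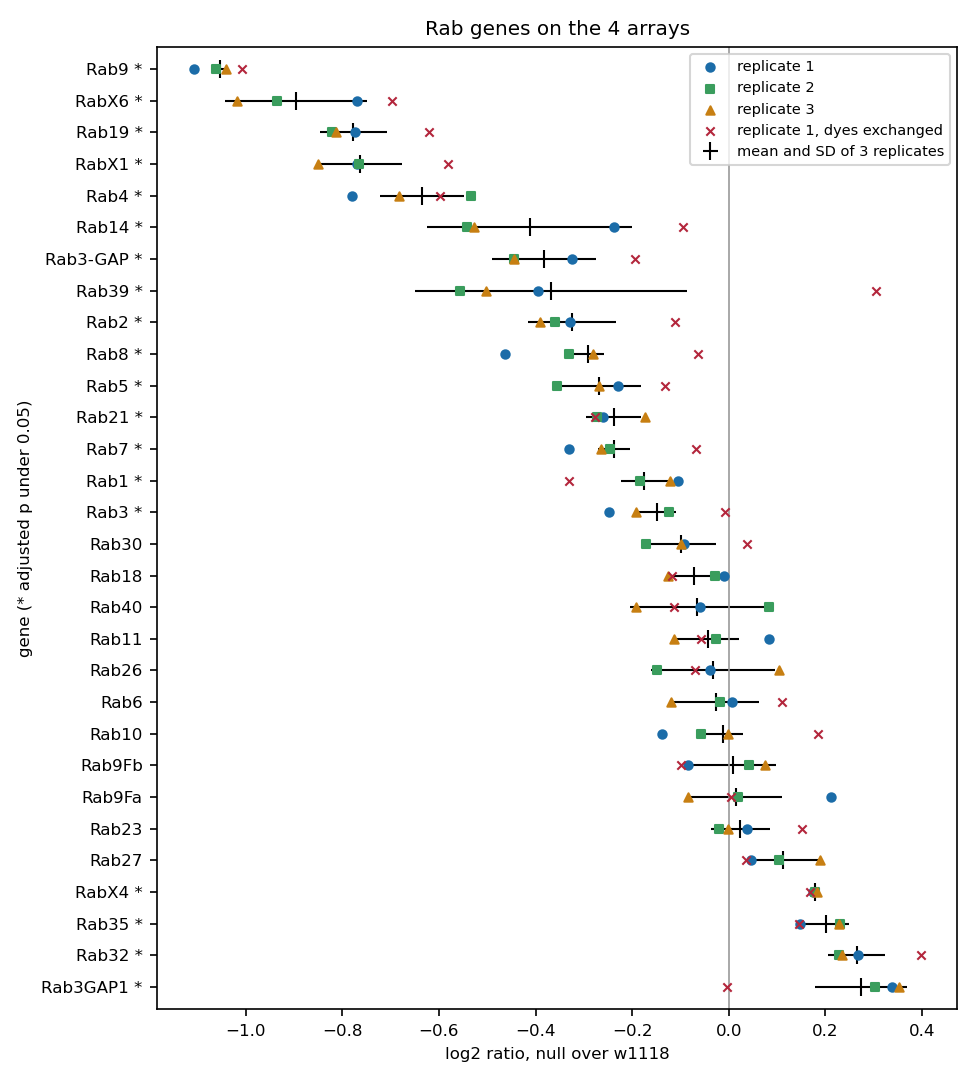
Log2 ratio of null over w1118 (horizontal axis) for the 30 measured Rab genes (vertical axis, sorted by mean), with a point for each of the 4 arrays and a bar for the mean and SD of 3 replicates. Rab9, RabX6, Rab19, RabX1 and Rab4 lie below -0.5 on every array, and the 4 higher genes reach no more than 0.40 on any array.

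Rab GTPases of the late endosome and lysosome numbered 4, of which 3 were lower and 1 was higher, on arrays where 26.1% of all genes were lower and 27.6% higher. Rab9, which acts in transport from late endosomes back to the Golgi, had log2 ratios of -1.11, -1.06 and -1.04 on replicates 1, 2 and 3 and of -1.01 on the dye-swapped array. Its normalised log2 signal lay between 8.25 and 8.51 in the null and between 9.31 and 9.56 in w1118. These ranges over the 4 arrays did not overlap. How many of all genes separate in this way, here and for the genes below, was not counted. The mean ratio of Rab9 was -1.05 ± 0.01 (SD, n = 3), a 2.08-fold lower level in the null (limma adjusted p = 7.61e-06). A second kept probe of Rab9 gave -0.81 ± 0.03 (SD, n = 3), with the same sign on all 4 arrays. Rab7, which drives fusion at late endosomes and lysosomes, had ratios of -0.33, -0.25, -0.26 and, with the dyes exchanged, -0.07. All 4 values were below 0, and their mean over replicates was -0.24 ± 0.03 (SD, n = 3; limma adjusted p = 0.0047). Rab39, linked to lysosomes, read -0.39, -0.56 and -0.50 in one dye orientation and 0.30 in the other. Its arrays thus fell on both sides of 0, and a second kept probe had a ratio of 0.01 ± 0.10 (SD, n = 3). Its mean of -0.37 ± 0.28 (SD, n = 3) passed the test (limma adjusted p = 0.022), but Rab39 lost its call in 6 of 17 alternatives. Its ratio was -0.09 with the dye as a term (adjusted p = 0.12), -0.23 with the scanner's processed signals (adjusted p = 0.075) and -0.30 without replicate 3 (adjusted p = 0.093). The mean of its kept probes was -0.18 (adjusted p = 0.034). Rab32 acts in the making of lysosome-related organelles such as eye pigment granules. It was above 0 on every array, at 0.27, 0.23 and 0.23 and, dye-swapped, 0.40, with a mean of 0.26 ± 0.06 (SD, n = 3; limma adjusted p = 0.0039). Its second probe was higher too, at 0.19 ± 0.08 (SD, n = 3).

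Among the 6 GTPases of early endosomes and recycling, 4 were lower, 1 was higher and Rab11 did not pass. Over all genes 26.1% were lower and 27.6% higher. Rab4, which returns cargo quickly from early endosomes to the cell surface, had ratios of -0.78, -0.53, -0.68 and, with the dyes exchanged, -0.60. Null signals lay between 12.21 and 12.28 on the log2 scale and w1118 signals between 12.76 and 13.02, with no overlap. The mean was -0.64 ± 0.09 (SD, n = 3), or 1.55-fold lower (limma adjusted p = 0.00014). The other kept probe of Rab4 gave -0.76 ± 0.18 (SD, n = 3), although its value on the dye-swapped array was only -0.21. Rab14, which acts between endosomes, phagosomes and lysosomes, differed between replicate 1 and the others. Both arrays of replicate 1 were nearest to 0, at -0.24 and, dye-swapped, -0.09, whereas replicates 2 and 3 stood at -0.54 and -0.53. Slide 1 held replicate 1 only, so slide and replicate cannot be told apart. The Rab14 mean of -0.41 ± 0.21 (SD, n = 3) passed (limma adjusted p = 0.0062). Rab5, the GTPase of early endosome fusion, had ratios of -0.23, -0.36, -0.27 and, dye-swapped, -0.13, all below 0. Its mean was -0.27 ± 0.09 (SD, n = 3; limma adjusted p = 0.0054), while its 2 other kept probes had means of -0.37 and 0.02. Rab21, also of the early endocytic route, had ratios of -0.26, -0.27, -0.17 and, dye-swapped, -0.28, all below 0. It was lower by both of its probes, at -0.24 ± 0.06 and -0.32 ± 0.05 (SD, n = 3; limma adjusted p = 0.0059 for the first). Rab35 acts in recycling and in actin organisation at the plasma membrane. It was above 0 on all 4 arrays, at 0.15, 0.23, 0.23 and, dye-swapped, 0.15, with a mean of 0.20 ± 0.05 (SD, n = 3; limma adjusted p = 0.010). A dimmer probe of Rab35 gave a larger ratio, 0.78 ± 0.04 (SD, n = 3), between 0.73 and 0.83 on the single arrays, and the mean of both probes was 0.49. Rab35 lost its call without replicate 2 (adjusted p = 0.062) or without replicate 3 (adjusted p = 0.089). Calls were fewer over all genes in these 2 fits, here and for the genes below: 42.7% and 35.1%, against 53.7% with all 3 replicates. Rab11, the GTPase of recycling endosomes, had a ratio of -0.04 ± 0.06 (SD, n = 3), and its other kept probes had means of -0.08 and -0.27, the latter called lower among all kept probes.

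Among the 6 GTPases of the endoplasmic reticulum and Golgi, 3 were lower and none was higher, against 26.1% lower and 27.6% higher over all genes. Rab19, found at the Golgi in flies, had ratios of -0.77, -0.82, -0.81 and, with the dyes exchanged, -0.62. Its log2 signal was 10.72 to 10.85 in the null and 11.47 to 11.61 in w1118, and the genotypes did not overlap. The mean of -0.78 ± 0.07 (SD, n = 3) is a 1.71-fold lower level (limma adjusted p = 4.65e-05), measured by a single probe. Rab2, which acts at the Golgi and in the delivery of cargo to lysosomes, had -0.33, -0.36, -0.39 and, dye-swapped, -0.11, all below 0. Its mean was -0.32 ± 0.09 (SD, n = 3; limma adjusted p = 0.0026), but a second probe had a ratio of 0.08 ± 0.04 (SD, n = 3) and did not pass, and the mean of both was -0.12 (adjusted p = 0.047). Rab1, needed for traffic from the endoplasmic reticulum to the Golgi, had -0.10, -0.18, -0.12 and, in the opposite dye orientation, -0.33. It is 1 of the 2 lower genes whose dye-swapped value was further from 0 than the unswapped value of replicate 1, the other being Rab21. Its mean of -0.17 ± 0.05 (SD, n = 3) passed (limma adjusted p = 0.018), and no longer did without replicate 2 (adjusted p = 0.094) or replicate 3 (adjusted p = 0.069). Rab6 and Rab30, which act at the Golgi, and Rab18, of the endoplasmic reticulum and lipid droplets, did not pass, with means of -0.03 ± 0.09, -0.10 ± 0.07 and -0.07 ± 0.05 (SD, n = 3).

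Of 5 GTPases of secretion and polarised delivery, 2 were lower, both with limits on the call, where 26.1% of all genes were lower. Rab8, which directs vesicles from the Golgi to the cell surface, had -0.46, -0.33, -0.28 and, dye-swapped, -0.06 by its brightest probe. The mean of -0.29 ± 0.03 (SD, n = 3) was called lower (limma adjusted p = 0.0020), as was a second probe at -0.25 ± 0.06 (SD, n = 3). Another kept probe of Rab8 did not pass at 0.07, and the remaining one was called higher at 0.27 ± 0.11 (SD, n = 3). Rab8 was the one member with called probes of opposite sign, and the mean of its kept probes, -0.05, did not pass (adjusted p = 0.30). Rab3, the GTPase of synaptic vesicles, had -0.25, -0.12, -0.19 and, dye-swapped, -0.0078, by the only kept probe of 3. Its mean of -0.15 ± 0.04 (SD, n = 3) passed (limma adjusted p = 0.030), and no longer did without replicate 2 (adjusted p = 0.12) or replicate 3 (adjusted p = 0.22). This probe is dim, and its ratio was -0.32 with a normexp offset of 0, -0.45 with the scanner's processed signals and -0.10, not called, with the dye as a term (adjusted p = 0.074). Rab10, which acts in polarised secretion, and Rab26 and Rab27, of regulated secretion, had means between -0.03 and 0.11 and did not pass. Rab26 was above background on 2 of 4 arrays in each genotype.

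The RabX genes carry a fly nomenclature and have less studied roles. RabX6 had ratios of -0.77, -0.94, -1.02 and, with the dyes exchanged, -0.70, with log2 signals of 9.20 to 9.62 in the null and 10.21 to 10.39 in w1118. RabX1 had -0.77, -0.77, -0.85 and, dye-swapped, -0.58, with 10.22 to 10.68 in the null and 11.02 to 11.26 in w1118. In neither gene did the genotypes overlap on these arrays. The means were -0.90 ± 0.15 (SD, n = 3), or 1.86-fold lower, for RabX6 (limma adjusted p = 8.51e-05), and -0.76 ± 0.09 (SD, n = 3), or 1.70-fold lower, for RabX1 (limma adjusted p = 6.54e-05). RabX4 was higher by a small and even amount, 0.17, 0.18, 0.18 and, dye-swapped, 0.17, with a mean of 0.18 ± 0.0057 (SD, n = 3; limma adjusted p = 0.013). RabX4 lost its call when replicate 2 (adjusted p = 0.079) or replicate 3 (adjusted p = 0.10) was left out. Rab40, whose mammalian relatives act with ubiquitin ligases, had -0.07 ± 0.14 (SD, n = 3) and did not pass. Rab23, which acts in planar polarity of the fly wing, was at 0.02 ± 0.06 (SD, n = 3) and did not pass either. Rab9Fa and Rab9Fb, related copies on the X chromosome, had means of 0.01 ± 0.10 and 0.0082 ± 0.09 (SD, n = 3). These signals were near background: Rab9Fa was above it on 3 of 4 arrays in each genotype, and Rab9Fb on 2 in the null and 1 in w1118. With the scanner's processed signals their ratios were -0.13 and 0.26, neither called. Whether their probes also catch other copies was not tested.

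**Figure D2:**
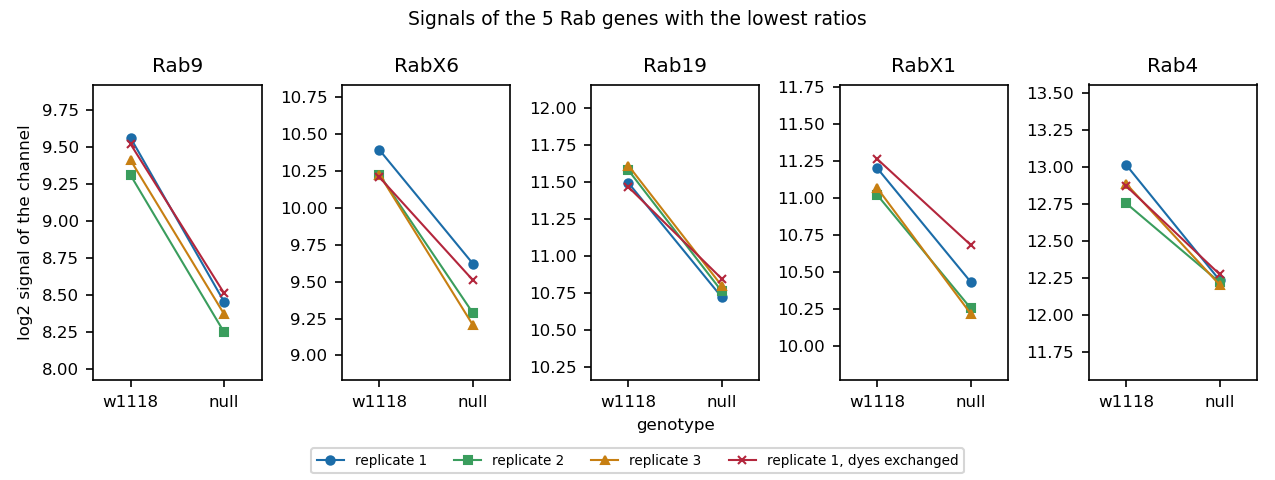
Normalised log2 signal of the probe that represents each of the 5 Rab genes with the lowest ratios, in w1118 and in the null, with a line for each of the 4 arrays; every panel spans the same 2 log2 units around its own centre, since levels of different probes are not comparable. Each line falls from w1118 to the null, and no null point reaches the lowest w1118 point. The genes were picked by their low ratios on these same arrays, so falling lines follow from the choice and test nothing.

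The regulator complex that acts on Rab3 and Rab18 was measured through both of its subunits, which had opposite signs. Rab3-GAP had ratios of -0.32, -0.44, -0.44 and, dye-swapped, -0.19, and was lower with a mean of -0.38 ± 0.11 (SD, n = 3; limma adjusted p = 0.0017). Its second kept probe was lower as well, at -0.23 ± 0.09 (SD, n = 3). Rab3GAP1 had 0.34, 0.30 and 0.35 with the null in Cy3 and -0.0037 with the null in Cy5. Its mean of 0.27 ± 0.10 (SD, n = 3) was called higher (limma adjusted p = 0.0056), and with replicate 1 taken from the dye-swapped array alone the call was lost (adjusted p = 0.11). Without these regulators the GTPases alone counted 14 lower, 3 higher and 11 not passed of 28.

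Several members could be checked with more than 1 probe. Over the 49 kept Rab probes 22 were lower, 7 higher and 20 not passed, so 59.2% were called, against 49.2% of all kept probes. Of 14 genes with more than 1 kept probe, 8 had all probes on one side of 0. The other 6 were Rab2, Rab5, Rab6, Rab8, Rab10 and Rab39. Of the 5 genes with the lowest ratios, Rab9 and Rab4 were measured by more than 1 kept probe, and RabX6, Rab19 and RabX1 by 1 each.

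**Figure D3:**
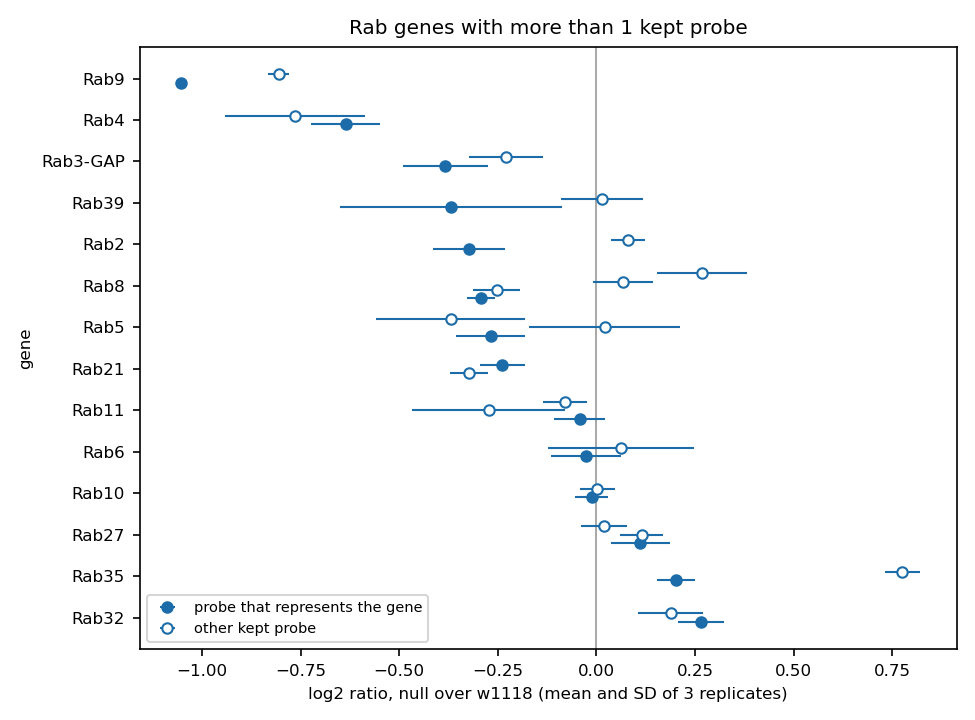
Log2 ratio of null over w1118 (mean and SD of 3 replicates) of every kept probe of the 14 Rab genes with more than 1, where filled points are the brightest probe, which represents the gene. Both probes of Rab9 and of Rab4 lie below -0.6, the probes of Rab8 range from -0.29 to 0.27, and those of Rab35 lie at 0.20 and 0.78.

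The median ratio of the family was closer to 0 on the dye-swapped array. Over the 30 genes it was -0.12, -0.16 and -0.15 on replicates 1, 2 and 3 and -0.07 on the dye-swapped array. Not every member followed the median: the highest ratio was 0.40 on the dye-swapped array and at most 0.35 on the others. Among the 15 lower genes, 13 were less negative on the dye-swapped array than on the unswapped array of replicate 1, which holds the same RNA. The share over all lower genes was not counted. In size, the 2 arrays of replicate 1 differed by a median of 0.13 over the Rab genes and 0.14 over all genes. Of the 15 lower genes, 14 were below 0 on all 4 arrays, Rab39 being the exception. Of the 4 higher genes, 3 were above 0 on all 4, Rab3GAP1 being the exception. The calls were made from these same arrays, so such agreement in sign is partly built in. How many of all called genes had the same sign on all 4 arrays was not counted. The dye-swapped array had the sign opposite to the unswapped arrays' mean in 6 of 30 Rab genes (20%) and 30.2% of all genes, and in 2 of the 19 called Rab genes (10.5%) and 12% of all called genes. The arrays of slide 1 had a family median of -0.09 and those of slide 2 of -0.14, and all 19 called genes had the same sign on both. This too follows in part from the calls, slide 1 held replicate 1 only, and the share over all called genes was not counted. With replicate 1 taken from the dye-swapped array alone, Rab1, Rab3, Rab7, Rab8, Rab39, RabX4 and Rab3GAP1 kept their sign but not their call (limma adjusted p from 0.052 for RabX4 to 0.32 for Rab39). A fit with the dye as a term over the 4 arrays, which counts both arrays of replicate 1 separately, gave 13 lower and 4 higher Rab genes and a median of -0.09. In it Rab9, RabX6, Rab19, RabX1 and Rab4 had ratios of -1.04, -0.80, -0.71, -0.69 and -0.63 and were called, while Rab39 and Rab3 were not. Rab14 and Rab3GAP1 were called there at smaller ratios of -0.27 and 0.16.

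By position, the 9 measured GTPases on the X chromosome had 3 calls (33.3%) and a median ratio of -0.01, where 48.8% of all genes on the X chromosome were called. The arms 2L, 2R, 3L and 3R had 3 of 5, 5 of 5, 3 of 4 and 3 of 5 called, with medians of -0.27, -0.32, -0.53 and -0.04. Of all genes on these arms 55.8%, 57.7%, 54.4% and 51.9% were called. These numbers are small and no difference between arms was tested.

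Genes that act with Rab proteins were counted from lists of known partners, in the same fit. Of 4 genes for prenylation and recycling, 1 was higher and 1 lower: RabGGTa, a subunit of the enzyme that attaches the prenyl group, at 0.15 ± 0.05, and Gdi, which retrieves inactive Rab proteins, at -0.24 ± 0.10 (SD, n = 3). Both were on the same side of 0 on all 4 arrays. Of 13 GEF genes 1 was higher and 4 were lower. Crag, a GEF of Rab10, stood at 0.31 ± 0.06, and strat, a GEF of Rab8, at -0.53 ± 0.13 (SD, n = 3; limma adjusted p = 0.0022 and 0.00062). The 10 subunits of TRAPP, the complex that activates Rab1 and Rab11, had 2 lower and none higher, gry having the lowest ratio at -0.20 ± 0.07 (SD, n = 3). Of 13 GAP genes 3 were higher and 3 lower. Of these wkd, a GAP of Rab35, stood at 0.38 ± 0.14, and sky, also a GAP of Rab35, at -0.39 ± 0.12 by its brightest probe (SD, n = 3). The kept probes of sky ranged from -0.39 to 0.17. The share called was 50% for prenylation and recycling, 38.5% for the GEFs, 20% for TRAPP and 46.2% for the GAPs. It was 53.7% over all genes.

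Among 40 measured tethers and effectors 9 were higher and 6 lower. Sec5, a subunit of the exocyst that tethers vesicles at the plasma membrane, had ratios of 1.09, 1.19, 1.28 and, dye-swapped, 1.03. It was 2.26-fold higher in the null by 1 probe, with a mean of 1.18 ± 0.11 (SD, n = 3; limma adjusted p = 1.41e-05). GM130, a tether of the cis-Golgi, had 1.18, 1.14, 1.05 and, dye-swapped, 1.33, a 2.22-fold higher level, also by 1 probe (limma adjusted p = 1.39e-05). Vps15, a subunit of the lipid kinase that acts with Rab5 on endosomes, was lower at -0.60 ± 0.11 (SD, n = 3), and Pi3K59F, the catalytic subunit of that kinase, at -0.48 ± 0.05 (SD, n = 3). In contrast Rbsn-5, an effector of Rab5, was higher at 0.58 ± 0.11 (SD, n = 3). GM130, Pi3K59F and Rbsn-5 were chosen after their values were seen. The share called was 37.5% in the tethers and effectors, 53.7% in all genes and 63.3% in the Rab genes.

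**Figure D4:**
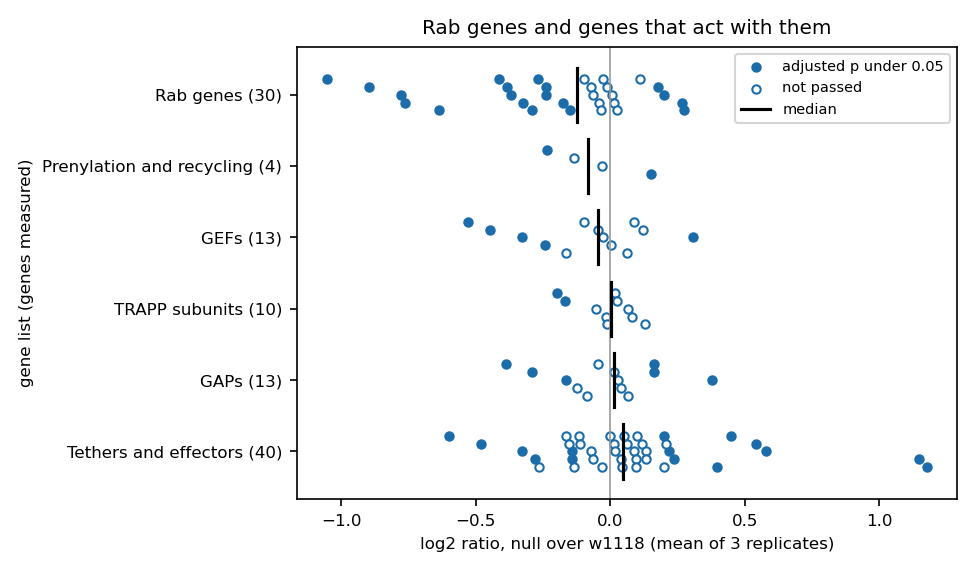
Log2 ratio of null over w1118 (mean of 3 replicates, horizontal axis) of the 30 Rab genes and of the genes in 5 lists that act with them, with filled points for an adjusted p under 0.05 and a vertical line for each list's median. The Rab median lies at -0.12, the medians of the other lists lie between -0.08 and 0.05, and the highest ratios, Sec5 and GM130, are among the tethers and effectors.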

How the data were processed

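The members and gene lists were chosen with earlier results of these data known. Per the file headers, the authors read the spots of an array annotated to Dm3 with version 10.1.1.1 of Agilent Feature Extraction. The deposited intensity columns used were the median spot and median background signals, and, as an alternative, the processed signals. The deposited log10 ratios of Cy5 over Cy3 were used only to check direction. The authors' series matrix holds log2 values with no stated scale, centring or direction. Against the scanner files its 4 columns ran w1118 over null with slopes near 1 in size, and its column medians were -0.137, 0.0707, 0.128 and -0.0411. It was used as an alternative.

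In R 4.3.3 with limma 3.58.1, background was corrected (normexp, offset 50) and each array was normalised by loess, in which controls and flagged outliers had no weight. The plan named mean signals, and the files used here carry medians. Ratios were turned to null over w1118 by the dyes in the labels. The signals given for each genotype were also normalised between arrays (limma, Aquantile), which leaves the ratios unchanged. Of 32162 probes, 19518 were named through annotation IDs and a RefSeq table of a later assembly, used for names and chromosome arms only. A probe was kept if 2 or more of 3 replicates of one genotype were well above background (20285 probes), and the brightest kept probe represents a gene. The 2 arrays of replicate 1 were averaged, and 9925 genes were tested with lmFit and eBayes and Benjamini-Hochberg adjustment at 0.05. Probe calls were adjusted over all kept probes. The number of replicates limits precision, and green and red signals were well above background on 56.7% to 65.8% of spots.

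All Rab genes were counted. Single arrays are given for genes that were called, reached 0.5 on the log2 scale, or had called probes of opposite sign. From each partner list the called gene with the largest ratio in each direction is named. The fit was also run on simulated data with independent noise on each array and no gene-specific dye effect. These settings differ from the arrays here, and no conclusion is drawn from that run. Of the 17 alternatives, the scanner's processed signals and the authors' matrix hold nearly the same values and are not independent. One list of other genes is not reported here. In the partner lists, CG7324 matched Tbc1d8-9 and counts among the GAPs only.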

Additional observations from a re-analysis of the deposited data

Results flagged for a closer look

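Over the 4 arrays 31 quantities of the Rab genes were compared, and chance alone sets about 1 in 20 apart. Rab21 on replicate 3 had a ratio of -0.1725, whereas its 3 other arrays lay between -0.2763 and -0.2607. Rab3GAP1 on the dye-swapped array had a ratio of -0.003723, whereas its 3 other arrays lay between 0.3025 and 0.3517.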

How the results depend on the processing

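The 30 Rab genes were recomputed under 17 alternatives, giving 507 ratios: 467 stayed on their side of the threshold, 35 lost the call, 5 gained one, and 0 called values changed sign. Of the 467, 23 uncalled ratios of 7 genes near 0 changed sign (Rab6, Rab10, Rab11, Rab23, Rab26, Rab9Fa and Rab9Fb). Rab9, RabX6, Rab19, RabX1 and Rab4 were called in all 17. Leaving out 1 replicate gave 2 to 5 higher and 12 to 15 lower Rab genes, the fewest of both without replicate 3, with 2 higher also without replicate 2. With replicate 1 from its dye-swapped array alone 2 were higher and 10 lower. In the ordinary test without moderation 1 was higher and 7 lower, where all genes had 1066 higher and 999 lower, compared with 2743 and 2590 in the moderated test. All genes had 1750 higher and 1677 lower with the dye-swapped array alone, 2122 and 2112 without replicate 2, and 1767 and 1712 without replicate 3. The Rab median was -0.17 among the 27 genes that were above background in both dyes on each of the 4 arrays, where fewer genes were counted, and lay between -0.16 and -0.09 in the other alternatives. The cause of the other changes was not tested. The comparison was paired by design, since the genotypes share each array and every ratio is within a replicate. Signal over background limits Rab3-GEF, RabX2 and RabX5, which have no ratio.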
